A study of Mus musculus with 10 samples.

Results

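The mitochondrial ribosomal protein genes were described in keratinocytes from the skin of mice that carry progerin, the truncated lamin A of Hutchinson-Gilford progeria (HGPS), and of wild type mice. The genes were taken by name: every locus with a symbol of Mrpl or Mrps followed by a number and with a usable test (status OK) in both of the authors' tables was kept, and pseudogenes were left out. This gave 76 loci, with 75 different symbols, of 10583 loci with status OK in both tables. RNA was sequenced in 4 groups: suprabasal cells of bitransgenic HGPS (BT) mice (2 samples) and of wild type (WT) mice (3 samples), and basal cells of BT mice (2 samples) and of WT mice (3 samples). All mice were FVB/N and at postnatal day 4, and in both genotypes the keratinocytes were isolated from skin and sorted by flow cytometry. The labels name neither the transgenes nor the promoter that drives them, and do not say how many mice gave each sample. Each locus has 1 level per group, read as FPKM (fragments scaled by transcript length and library size), so no spread between samples can be given and the depth per sample is unknown. The ± beside a log2 ratio of BT over WT is the standard error (SE) implied by the p of the authors' deposited table.

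The mitochondrial ribosome, or mitoribosome, translates the few messenger RNAs made from mitochondrial DNA, which encode core subunits of the respiratory chain and of ATP synthase. Its RNA is made inside the organelle, but all of its proteins are encoded in the nucleus, made in the cytosol and imported. A small subunit reads the messenger RNA and a large subunit joins the amino acids. Part of the proteins have counterparts in bacterial ribosomes and the others were added during the evolution of mitochondria. In skin, basal keratinocytes sit on the basement membrane and divide, and suprabasal keratinocytes have left it and differentiate.

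Of the 75 symbols, 26 encode proteins of the small subunit and 48 proteins of the large subunit. The large subunit here includes Mrps30 and Mrps18a, which carry small-subunit names. Mrps36 fits neither, because its protein is now assigned to the oxoglutarate dehydrogenase complex, and it was kept only because the name was the rule. Mrps30 has a pair of loci, which gives 49 large-subunit loci. By origin, 46 loci have a bacterial counterpart and 29 are specific to mitochondria. The genes lie on 17 chromosomes, with most on chromosome 11 (10 loci), chromosome 17 (8 loci) and chromosome 6 (7 loci). In 6 loci the authors' table merges the gene with a neighbour, so that the level belongs to both: Mrpl33 with Bre, Mrpl53 with Ccdc142, Mrpl48 with D630004N19Rik, Mrps24 with Urgcp, Mrps34 with Nme3 and Mrps6 with Slc5a3. By the GENCODE annotation, 27 of the loci overlap another coding gene, and whether the counting used strand is not given in the sources used here.

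Promoter windows are shown for some of the genes on which the values below turn. Mrps12, Mrpl39 and Mrps15 had the smallest p in suprabasal cells among the members with lower levels in BT. Mrpl52 had the highest level in all 4 groups. Mrps11 is added because it shares its start region with another member, Mrpl46. Each window is 300 bases of RefSeq sequence (GRCm38.p6), from 250 bases before the gene's start to 50 bases after it, on the gene's strand. The positions are chr7:28741772-28742071 (minus strand) for Mrps12, chr16:84735195-84735494 (minus strand) for Mrpl39, chr4:126046678-126046977 (plus strand) for Mrps15, chr14:54426659-54426958 (plus strand) for Mrpl52 and chr7:78782881-78783180 (plus strand) for Mrps11. Capitals mark letters that match 1 of 4 short motifs on either strand: CCGGAAG for ETS factors such as GABP, GCGCANGCG for NRF1, ATGGCGG for YY1 and AAGGTCA for estrogen-related receptors.
Mrps12: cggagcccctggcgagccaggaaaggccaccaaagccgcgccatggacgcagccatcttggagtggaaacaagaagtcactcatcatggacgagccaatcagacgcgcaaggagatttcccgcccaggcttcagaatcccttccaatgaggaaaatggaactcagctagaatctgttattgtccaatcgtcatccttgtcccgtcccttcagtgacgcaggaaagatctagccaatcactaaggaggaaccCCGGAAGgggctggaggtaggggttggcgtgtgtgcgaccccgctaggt
Mrpl39: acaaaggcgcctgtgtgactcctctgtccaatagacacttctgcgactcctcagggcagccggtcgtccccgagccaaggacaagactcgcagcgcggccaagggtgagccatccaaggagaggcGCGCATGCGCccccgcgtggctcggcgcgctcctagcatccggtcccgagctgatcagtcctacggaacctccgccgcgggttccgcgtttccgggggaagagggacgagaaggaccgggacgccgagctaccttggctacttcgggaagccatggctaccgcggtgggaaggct
Mrps15: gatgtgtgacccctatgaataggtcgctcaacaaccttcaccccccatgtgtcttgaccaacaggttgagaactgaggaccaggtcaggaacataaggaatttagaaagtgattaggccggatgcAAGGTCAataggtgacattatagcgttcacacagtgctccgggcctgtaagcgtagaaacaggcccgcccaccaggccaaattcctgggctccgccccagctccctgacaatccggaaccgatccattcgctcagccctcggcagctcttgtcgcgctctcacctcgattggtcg
Mrpl52: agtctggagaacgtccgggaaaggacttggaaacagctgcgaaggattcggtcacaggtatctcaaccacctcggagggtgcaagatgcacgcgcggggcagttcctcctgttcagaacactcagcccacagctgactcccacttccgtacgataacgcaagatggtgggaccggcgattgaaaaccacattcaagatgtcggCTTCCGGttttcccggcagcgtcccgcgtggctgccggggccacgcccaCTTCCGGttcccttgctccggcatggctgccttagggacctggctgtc
Mrps11: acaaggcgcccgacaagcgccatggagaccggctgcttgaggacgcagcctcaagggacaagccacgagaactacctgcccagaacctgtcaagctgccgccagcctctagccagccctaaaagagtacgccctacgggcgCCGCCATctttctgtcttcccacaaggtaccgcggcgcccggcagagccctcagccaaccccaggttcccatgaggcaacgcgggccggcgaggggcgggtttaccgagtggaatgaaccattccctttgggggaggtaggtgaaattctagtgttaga

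NRF1 and GABP are known regulators of nuclear genes for mitochondrial proteins, and YY1 and the estrogen-related receptors are further ones. The Mrps12 window holds 1 ETS match, 1 base after the start, and the Mrpl52 window holds 2 ETS matches, both on the minus strand of the window. The Mrpl39 window holds 2 NRF1 matches, 1 on each strand, which overlap in a single run of letters. The Mrps15 window holds 1 match for estrogen-related receptors and the Mrps11 window 1 match for YY1 on the minus strand. The windows of Mrps17, Mrpl28 and Mrpl46 were also searched. They are not printed, and they hold no match for any of these motifs.

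Windows were found for 66 of the 75 symbols, with 72 windows because some genes have more than 1 start. The ETS motif was in 33.3% of the member windows, against 18.8% of the 9750 windows of genes with status OK in both tables and 8.86% of all 32851 windows of the same length. The shares for NRF1 were 20.8% in member windows, 14.1% in windows of genes with status OK and 6.25% in all windows. YY1 letters were in 18.1% of member windows, 8.59% of windows of genes with status OK and 4.05% of all windows. The letters for estrogen-related receptors were in 5.56%, 2.93% and 4.72% of the same 3 sets, in that order. No member window had overlapping matches of different motifs, and 40.3% of member windows held none of the 4, against 63.0% for genes with status OK. The median GC content was 58.2% in member windows and 61.3% in those of genes with status OK. A match is a stretch of letters and no measurement of binding.

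The makeup of the groups was read from marker genes before the members. The 10 suprabasal keratinocyte markers summed to 17585 FPKM in BT and 22645 FPKM in WT suprabasal cells, where 6 stood higher and 4 lower in BT with none called. Among the 4 were the keratins Krt10, with 2354 FPKM in BT and 6574 FPKM in WT, and Krt1, with 1622 FPKM in BT and 3419 FPKM in WT. The lower sum is thus not a drop of the whole set. In basal cells the 10 markers summed to 13458 FPKM in BT and 11480.3 FPKM in WT, with 5 on each side. There the desmosomal cadherin Dsc1 rose, with 38.1 FPKM in BT and 13.7 FPKM in WT, and the envelope protein Lor fell, with 3.18 FPKM in BT and 17.2 FPKM in WT. The 10 basal keratinocyte markers summed to 4829 FPKM in BT and 8825 FPKM in WT suprabasal cells, and to 12189 FPKM in BT and 19004 FPKM in WT basal cells, with 8 and 9 of them lower in BT. Of these the keratin Krt15 alone passed the test, and it fell in both layers. The Krt5 locus in these sums is merged with Krt2, Krt6b, Krt72, Krt76 and Krt8, and the Krt14 locus with Krt16. The merged Krt5 locus alone had 2591 FPKM in BT and 5147 FPKM in WT suprabasal cells. In basal cells it had 6923 FPKM in BT and 11677 FPKM in WT, so the sums are not levels of basal markers only. The 8 melanocyte markers, all measured in suprabasal cells, summed there to 3843 FPKM in BT and 2073 FPKM in WT. All 8 stood higher in BT there, with none called. In basal cells the 3 that were measured summed to 12.9 FPKM in BT and 8.38 FPKM in WT, and all 3 stood higher in BT. The marker Dct alone had 2012 FPKM in BT and 1122 FPKM in WT suprabasal cells, so these samples held melanocyte RNA beside that of keratinocytes. Of 9 fibroblast markers, 6 were measured in suprabasal cells, with a sum of 35.3 FPKM in BT and 21.5 FPKM in WT, and 2 in basal cells, with a sum of 5.53 FPKM in BT and 15.1 FPKM in WT. Cd74 was the leukocyte marker measured, at 5.02 to 7.14 FPKM in all groups, and no endothelial marker was. The 2 erythroid markers measured, in suprabasal cells, summed to 15.4 FPKM in BT and 2.59 FPKM in WT, and the muscle marker Tnni2 fell in basal cells, with 1.08 FPKM in BT and 9.44 FPKM in WT. No measured marker was at 0, and their part in the members' values was not tested. Xist, the RNA of the inactive X chromosome in females, had 103 FPKM in BT and 0.236 FPKM in WT suprabasal cells, and 108 FPKM in BT and 0.258 FPKM in WT basal cells, so sex and genotype cannot be told apart here. In such bulk samples, fewer cells of a type and less RNA per cell cannot be told apart either.

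The members stood at moderate levels and close together. The median level in suprabasal cells was 19.2 FPKM in BT and 19.99 FPKM in WT, and in basal cells it was 19.9 FPKM in BT and 19.7 FPKM in WT. Over all loci with status OK in both tables, the medians in suprabasal cells were 12.7 FPKM in BT and 13.5 FPKM in WT, and in basal cells 12.3 FPKM in BT and 13.6 FPKM in WT. Of the 76 members, 49 lay between 10 and 50 FPKM in all 4 groups. The proteins enter the ribosome in 1 copy each, apart from the stalk protein encoded by Mrpl12, yet the levels per length spanned 2.97 to 146 FPKM in BT and 1.84 to 183 FPKM in WT suprabasal cells, and 2.65 to 236 FPKM in BT and 0.313 to 185 FPKM in WT basal cells.

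Mrpl52, a large-subunit protein specific to mitochondria, was first in every group. It stood at 146 FPKM in BT and 183 FPKM in WT suprabasal cells, and at 236 FPKM in BT and 185 FPKM in WT basal cells. It made up 7.02% of the summed member level in BT and 8.72% in WT suprabasal cells, and 11.3% in BT and 9.23% in WT basal cells. Behind it came Mrpl33 (in its merged locus), Mrps21, Mrpl20, Mrpl42 and Mrpl12, counted by their mean over the 4 groups. Mrpl33 had 114 FPKM in BT and 113 FPKM in WT suprabasal cells, and 127 FPKM in BT and 101 FPKM in WT basal cells. Mrps21, the highest small-subunit gene, had 117 FPKM in BT and 111 FPKM in WT suprabasal cells, and 66.8 FPKM in BT and 86.1 FPKM in WT basal cells. The order among these genes differed from group to group, and without values per sample it cannot be said which neighbours in it differ.

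Mrpl20, a large-subunit protein with a bacterial counterpart, had 121 FPKM in BT and 88.6 FPKM in WT suprabasal cells, and 82.6 FPKM in BT and 60.2 FPKM in WT basal cells. Mrpl42 had 96.3 FPKM in BT and 73.3 FPKM in WT suprabasal cells, and 80.5 FPKM in BT and 62.4 FPKM in WT basal cells. Both were thus on the higher side in BT in each layer, by less than 1.5-fold. Mrpl12, whose protein forms the stalk that recruits translation factors, had 44.2 FPKM in BT and 58.4 FPKM in WT suprabasal cells, and 39.5 FPKM in BT and 39.4 FPKM in WT basal cells.

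At the low end were Mrps33, Mrps36, Mrpl27 and Mrps31. Mrps33 had 4.14 FPKM in BT and 4.07 FPKM in WT suprabasal cells, and 2.65 FPKM in BT and 1.59 FPKM in WT basal cells. Mrpl27, whose bacterial counterpart lies close to the site where amino acids are joined, had 2.97 FPKM in BT and 2.74 FPKM in WT suprabasal cells, and 5.57 FPKM in BT and 5.56 FPKM in WT basal cells. The SE of the log2 ratio was wide for Mrpl27, at 1.58 in suprabasal and 1.84 in basal cells. For Mrps31 it was 0.64 in suprabasal and 0.63 in basal cells, nearer to the member medians of 0.52 and 0.47.

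**Figure D1:**
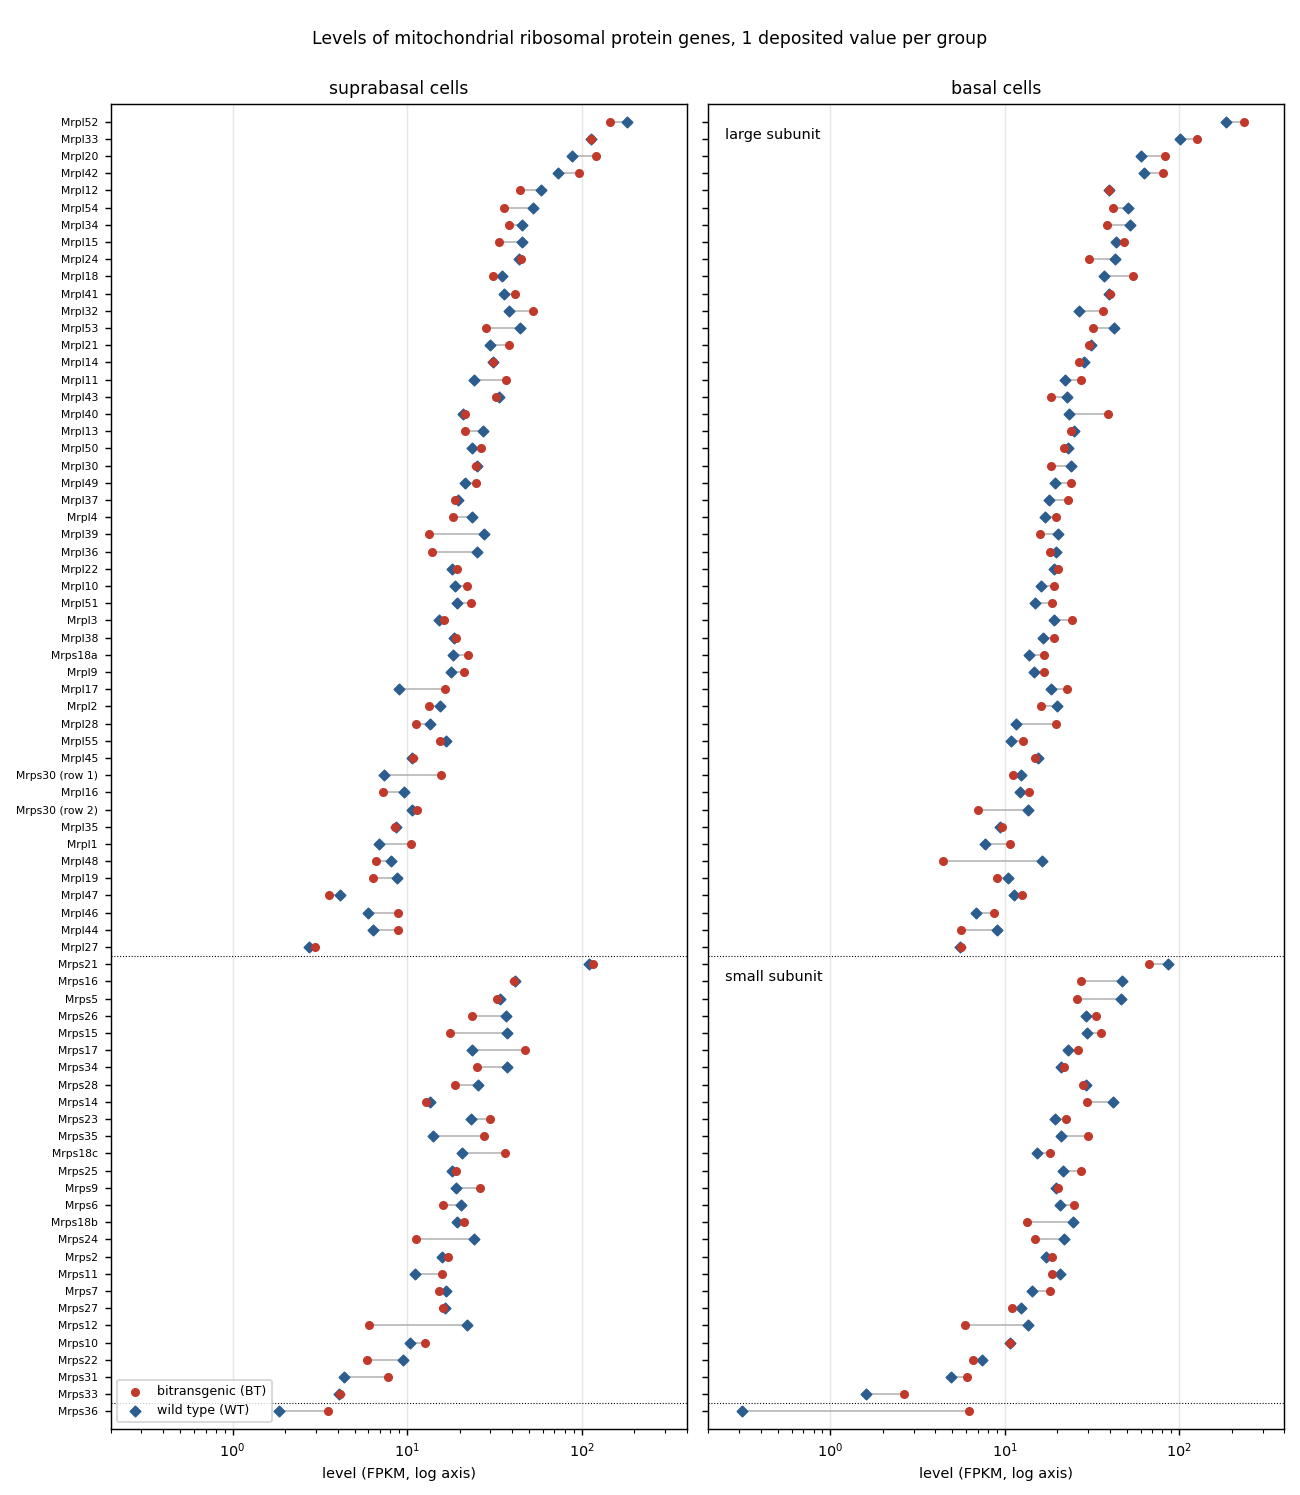
Level of each mitochondrial ribosomal protein gene (FPKM, log axis) in suprabasal and basal cells, with 1 deposited value per group: red circles for BT, blue diamonds for WT, joined by a line, ordered by mean level within the large subunit, the small subunit and Mrps36. Mrps30 (row 1) and Mrps30 (row 2) are the first and second locus of that gene. Mrpl52 is at the top of the large subunit in every group, and most pairs of points lie close to each other, with Mrps12 (6.03 FPKM in BT, 22.2 FPKM in WT, suprabasal) and Mrpl48 (4.39 FPKM in BT, 16.2 FPKM in WT, basal) among the wider gaps.

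The order of the members was largely shared between groups. Across the 76 members, Spearman's rho between BT and WT levels was 0.848 in suprabasal and 0.891 in basal cells, and between suprabasal and basal levels it was 0.839 in BT and 0.889 in WT. Over all 10583 loci the same values were 0.915 and 0.928 between genotypes, and 0.852 and 0.878 between layers. These are descriptions across genes of pooled groups, and transcript length and mapping are common to all of them.

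In suprabasal cells the question was whether cells that have left the basal layer carry other levels of these transcripts when progerin is present. No member passed the authors' test: 0 of 76 had a q (adjusted p) under 0.05, against 0.471% of the 11464 loci tested (0.0523% higher and 0.419% lower in BT). The smallest q of a member in the authors' deposited table was 0.141, for Mrps12. Unadjusted p under 0.05 was found for 4 members, against 7.11% of all loci. The fold of the summed levels was 0.993, with 2080.0 FPKM in BT and 2094.7 FPKM in WT. The median log2 ratio, with a pseudocount of 1 FPKM, was 0.02 for the members and -0.09 for all loci in both tables. Of the members, 40 lay above 0 and 36 below (52.6% above, against 41.6% of all loci). Within 1.5-fold were 59 of the 76, or 77.6%, against 69.3% of all loci tested in suprabasal cells. More than 2-fold apart were 6, against 13.1% of all loci tested. Of the loci in both tables, as the members are, 72.2% were within 1.5-fold and 10.8% more than 2-fold apart in suprabasal cells.

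Mrps12 had the widest gap in suprabasal cells. Its protein is the counterpart of the bacterial protein S12, which lies at the decoding centre of the small subunit. The level was 6.03 FPKM in BT and 22.2 FPKM in WT, a log2 ratio of -1.88 ± 0.64 (p = 0.0033 in the authors' deposited table). In basal cells it had 5.93 FPKM in BT and 13.5 FPKM in WT, a log2 ratio of -1.19 ± 0.80 (p = 0.137 in the authors' deposited table). It was the only member more than 1.5-fold lower in BT in both layers. The suprabasal minus basal difference of the log2 ratios was -0.69 ± 1.02, which is smaller than its SE.

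Mrpl39, a large-subunit protein specific to mitochondria, had 13.3 FPKM in BT and 27.5 FPKM in WT suprabasal cells (-1.04 ± 0.43, p = 0.0163 in the authors' deposited table). In basal cells its levels were 15.9 FPKM in BT and 20.2 FPKM in WT (-0.34 ± 0.37). Mrps15, which has a bacterial counterpart in the small subunit, had 17.6 FPKM in BT and 37.5 FPKM in WT suprabasal cells (-1.09 ± 0.45, p = 0.0153 in the authors' deposited table). Mrps17, another small-subunit protein with a bacterial counterpart, was on the other side, with 47.4 FPKM in BT and 23.6 FPKM in WT suprabasal cells (1.004 ± 0.47, p = 0.0334 in the authors' deposited table). In basal cells Mrps17 had 26.3 FPKM in BT and 23.1 FPKM in WT (0.19 ± 0.38). With Mrps12, these are the 4 members with an unadjusted p under 0.05, and each missed the threshold after adjustment.

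None of the other members named here for suprabasal cells passed the test. Their SEs ran from 0.44 (merged locus of Mrpl53) to 2.28 (first Mrps30 locus), beside a member median of 0.52. Mrps24 in its merged locus had 11.2 FPKM in BT and 24.2 FPKM in WT (-1.11 ± 0.68), and the first Mrps30 locus 15.7 FPKM in BT and 7.36 FPKM in WT (1.09 ± 2.28). The second Mrps30 locus had 11.4 FPKM in BT and 10.7 FPKM in WT (0.10 ± 0.52), so the loci of this gene do not give a single value. Mrps35, a small-subunit protein specific to mitochondria, had 27.5 FPKM in BT and 14.02 FPKM in WT (0.97 ± 0.52). Mrpl17, Mrps31, Mrps18c, Mrpl1 and Mrpl11 were also higher in BT, with log2 ratios from 0.60 (Mrpl11, SE 0.49) to 0.87 (Mrpl17, SE 0.70). Mrpl36, Mrps22, Mrps26 and the merged locus of Mrpl53 were lower, from -0.65 (Mrpl53, SE 0.44) to -0.87 (Mrpl36, SE 0.48). Mutations of MRPS22 in humans cause a deficiency of the respiratory chain, and here the gene had 5.87 FPKM in BT and 9.499 FPKM in WT. The merged locus of Mrps34 stood at 25.02 FPKM in BT and 37.3 FPKM in WT, and that of Mrps6 at 16.1 FPKM in BT and 20.4 FPKM in WT.

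In basal cells the same question concerned the dividing layer. Again 0 of 76 members passed, against 1.65% of the 11290 loci tested (0.257% higher and 1.39% lower in BT). The smallest q of a member in the authors' deposited table was 0.242, for Mrpl48. Unadjusted p under 0.05 was found for 2 members, against 7.68% of all loci. The fold of the summed levels was 1.04, with 2082.1 FPKM in BT and 1999.98 FPKM in WT. The median log2 ratio was 0.09 for the members and -0.10 for all loci in both tables. The loci with at least 1 FPKM in both groups had a median, on the same pseudocount scale, of -0.07 in suprabasal and -0.10 in basal cells, and relative to these the members' median was 0.09 in suprabasal and 0.19 in basal cells. Of the members, 45 lay above 0 and 31 below (59.2% above, against 40.2% of all loci). Within 1.5-fold were 65 of the 76, or 85.5%, against 70.1% of all loci tested in basal cells. More than 2-fold apart were 3, against 14.1% of all loci tested. Of the loci in both tables, as the members are, 72.9% were within 1.5-fold and 11.4% more than 2-fold apart in basal cells.

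Mrpl48 had the smallest p in basal cells, but its level comes from a locus merged with D630004N19Rik, and the table also lists the pseudogene Mrpl48-ps, with which it may share reads. That locus had 4.39 FPKM in BT and 16.2 FPKM in WT basal cells (-1.88 ± 0.84, p = 0.0257 in the authors' deposited table), and 6.61 FPKM in BT and 8.12 FPKM in WT suprabasal cells (-0.30 ± 0.79). Mrpl28, a large-subunit protein with a bacterial counterpart, had 19.7 FPKM in BT and 11.6 FPKM in WT basal cells (0.76 ± 0.37, p = 0.0411 in the authors' deposited table). In suprabasal cells Mrpl28 had 11.3 FPKM in BT and 13.5 FPKM in WT (-0.25 ± 0.43). The largest ratio belonged to Mrps36, with 6.23 FPKM in BT and 0.313 FPKM in WT basal cells (4.31 ± 3.71), where the SE is nearly as large as the ratio. Its pseudogenes Mrps36-ps1 and Mrps36-ps2 are listed too, so its level is uncertain. In suprabasal cells Mrps36 had 3.504 FPKM in BT and 1.84 FPKM in WT (0.93 ± 0.99), and it was the only member more than 1.5-fold higher in BT in both layers.

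The next largest gaps in basal cells, none of which passed the test, included several small-subunit genes with lower values in BT. Mrps18b, one of the 3 mammalian genes related to bacterial S18, had 13.4 FPKM in BT and 24.7 FPKM in WT (-0.88 ± 0.99). Mrps5 had 25.9 FPKM in BT and 46.6 FPKM in WT (-0.85 ± 0.50), and Mrps16 had 27.4 FPKM in BT and 46.6 FPKM in WT (-0.77 ± 0.42). In suprabasal cells the levels of Mrps5 were 32.96 FPKM in BT and 34.2 FPKM in WT, and those of Mrps16 were 41.2 FPKM in BT and 41.6 FPKM in WT. The second Mrps30 locus had 6.98 FPKM in BT and 13.5 FPKM in WT basal cells (-0.95 ± 0.52), and Mrpl44, whose human counterpart is mutated in an infantile cardiomyopathy, had 5.61 FPKM in BT and 8.95 FPKM in WT (-0.68 ± 0.68). On the other side, Mrpl40 had 38.9 FPKM in BT and 23.3 FPKM in WT basal cells (0.74 ± 0.49), and Mrpl18 had 54.5 FPKM in BT and 37.0 FPKM in WT (0.56 ± 0.87). Mrpl32, which in mouse and yeast is matured by a protease before it joins the ribosome, had 36.6 FPKM in BT and 26.6 FPKM in WT basal cells, and 52.5 FPKM in BT and 38.3 FPKM in WT suprabasal cells.

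**Figure D2:**
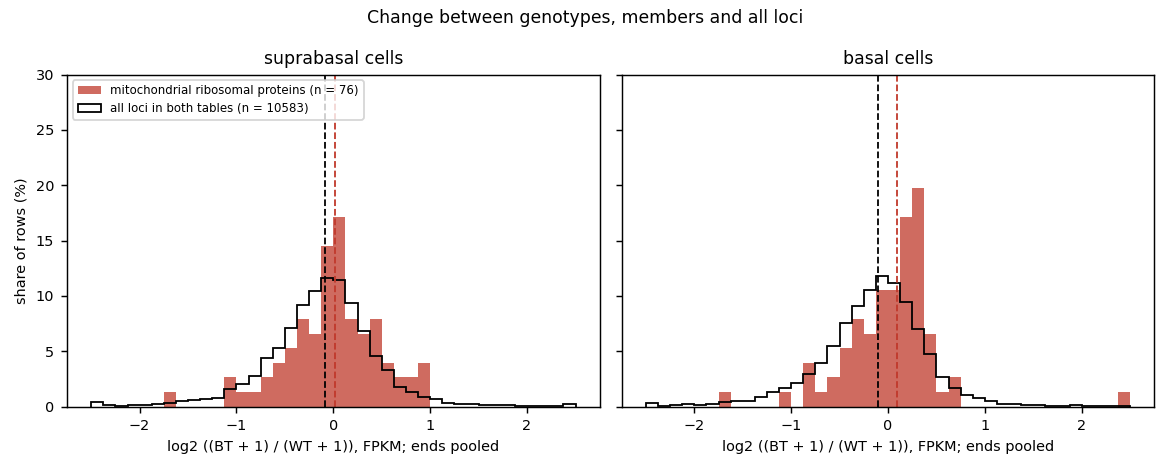
Share of loci (%) by log2 ratio of BT over WT, with a pseudocount of 1 FPKM, for the 76 members (red) and for all 10583 loci in both tables (black line), and dashed lines at the medians. Values beyond the ends are pooled in the outer bins. The medians of the members are 0.02 in suprabasal and 0.09 in basal cells, and those of all loci are -0.09 and -0.10 in the same order of layers.

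The median log2 ratios of the subunits and of the classes of origin lay close to each other in both layers. The median log2 ratio in suprabasal cells was 0.0021 for the 26 small-subunit loci and 0.02 for the 49 large-subunit loci, and in basal cells it was 0.05 for the small and 0.14 for the large subunit. The 46 loci with a bacterial counterpart had a median of -0.0066 in suprabasal and 0.05 in basal cells. The 29 loci specific to mitochondria had a median of 0.03 in suprabasal and 0.17 in basal cells. The fold of the summed small-subunit levels was 0.991 in suprabasal cells (625 FPKM in BT, 631 FPKM in WT) and 0.911 in basal cells (564 FPKM in BT, 619 FPKM in WT). For the large subunit it was 0.993 in suprabasal cells (1452 FPKM in BT, 1462 FPKM in WT) and 1.10 in basal cells (1512 FPKM in BT, 1380 FPKM in WT). Of the large-subunit sums in basal cells, Mrpl52 made up 236 FPKM in BT and 185 FPKM in WT. The spread was wider for the small subunit in suprabasal cells. There 65.4% of the small-subunit and 85.7% of the large-subunit loci were within 1.5-fold. More than 2-fold apart there were 15.4% of the small-subunit and 4.08% of the large-subunit loci, against 10.8% of all loci in both tables. In basal cells these last shares were 3.85% and 2.04%, against 11.4%. No test was made between these classes.

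The size of a change that could have been called sets how these counts can be read. The largest p called in the authors' deposited table was 0.0003 in suprabasal and 0.0036 in basal cells. The median SE of the members was 0.52 in suprabasal and 0.47 in basal cells. At these errors a log2 ratio of 1.88 (3.68-fold) would have been needed in suprabasal cells and 1.36 (2.57-fold) in basal cells. The ratio was smaller than its own SE for 56 members (73.7%, against 69.7% of all loci) in suprabasal cells and for 58 members (76.3%, against 66.0% of all loci) in basal cells. The 95% interval of the log2 ratio lay within 2-fold in either direction for 11 members in suprabasal and 19 in basal cells, and within 4-fold for 58 and 64 members. A difference of about 2-fold in most single members was therefore not detectable with these samples.

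The change between genotypes was also compared between the layers, as the suprabasal minus the basal log2 ratio, with a Wald z-test over 10579 loci. None of the 76 members passed (0 at Benjamini-Hochberg adjusted p under 0.05, against 0.0378% of all loci), and the smallest adjusted p of a member was 0.9999. Unadjusted p under 0.05 was found for 1 member, against 3.08% of all loci. That member was Mrps15, with a difference of -1.35 ± 0.56: its levels were 17.6 FPKM in BT and 37.5 FPKM in WT suprabasal cells, and 35.5 FPKM in BT and 29.7 FPKM in WT basal cells. Mrpl28 followed with a difference of -1.02 ± 0.57, the second Mrps30 locus with 1.05 ± 0.73 and the merged Mrpl48 locus with 1.59 ± 1.16. The test treats both layers as unrelated samples, while some title stems occur in each.

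By sign, 29 members were higher in BT in both layers and 20 lower in both. A further 11 were higher in suprabasal and lower in basal cells, and 16 the other way round. The sign was thus the same in both layers for 49 members (64.5%), against 60.5% of all loci. Spearman's rho of the log2 ratios between layers was 0.35 across the 76 members and 0.255 across all loci, a description across genes whose libraries share title stems.

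**Figure D3:**
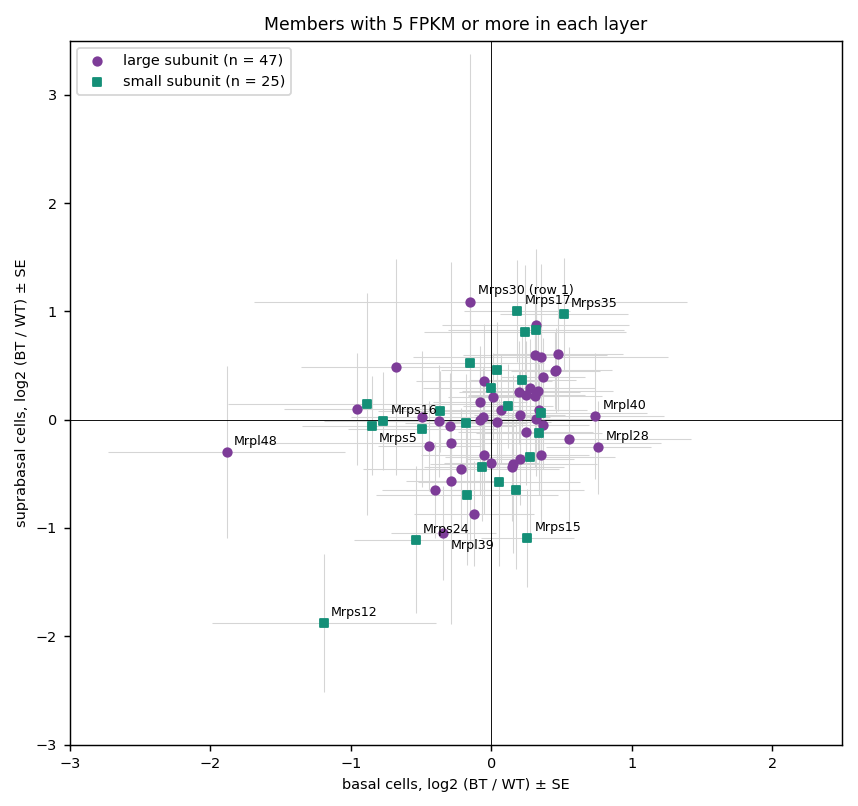
Log2 ratio of BT over WT in basal cells (horizontal) and suprabasal cells (vertical) for the 72 members with 5 FPKM or more in the higher group of each layer, purple circles for the large and green squares for the small subunit, with bars for ± 1 SE. Mrps12 lies low in both layers (-1.88 suprabasal, -1.19 basal), Mrpl48 lies low in basal cells (-1.88), and Mrps15 lies low in suprabasal cells (-1.09) but not in basal cells (0.26).

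Within a genotype the members differed little between layers. Each layer has a table of its own with its own normalization, so the ratios are descriptions only. The median ratio of suprabasal over basal levels was 1.004 in BT and 1.04 in WT. More than 2-fold apart were 5.26% of the members in BT and 7.89% in WT, against 19.4% of all loci in BT and 14.4% in WT. Mrps14, a small-subunit protein with a bacterial counterpart, had a ratio of 0.433 in BT and 0.328 in WT, and Mrpl47 had 0.284 in BT and 0.364 in WT. Mrps14 stood at 12.8 FPKM in BT and 13.6 FPKM in WT suprabasal cells, and at 29.5 FPKM in BT and 41.5 FPKM in WT basal cells. Mrpl47 stood at 3.56 FPKM in BT and 4.10 FPKM in WT suprabasal cells, and at 12.5 FPKM in BT and 11.3 FPKM in WT basal cells.

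The rest of the machinery of mitochondrial gene expression was read from 5 lists. None of their 73 loci passed the authors' test, against 0.471% of all loci tested in suprabasal and 1.65% in basal cells. At unadjusted p under 0.05, 1 was higher and 1 lower in BT in suprabasal cells, against 7.11% of all loci in either direction. In basal cells 2 were lower, against 7.68% of all loci in either direction. The 7 mitoribosomal proteins under other symbols had a median log2 ratio of -0.22 in suprabasal and 0.09 in basal cells. The large-subunit gene Mrp63 among them had 6.75 FPKM in BT and 12.8 FPKM in WT suprabasal cells (-0.92 ± 0.50), and the small-subunit gene Aurkaip1 had 34.9 FPKM in BT and 24.8 FPKM in WT basal cells (0.49 ± 0.39).

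The 21 loci for enzymes that charge mitochondrial transfer RNAs or modify the attached amino acid had medians of -0.04 in suprabasal and -0.09 in basal cells. Pars2, which charges the transfer RNA for proline, had the widest gap of any list: 0.605 FPKM in BT and 9.82 FPKM in WT basal cells (-4.02 ± 1.42, q = 0.063 in the authors' deposited table), but 3.41 FPKM in BT and 1.42 FPKM in WT suprabasal cells (1.27 ± 1.10). Its suprabasal minus basal difference was 5.29 ± 1.80, with a Benjamini-Hochberg adjusted p of 0.858. Gatc had 8.16 FPKM in BT and 13.9 FPKM in WT suprabasal cells (-0.77 ± 0.59). Its protein is a subunit of the enzyme that turns glutamate on the transfer RNA for glutamine into glutamine. The 12 translation factor loci had medians of -0.20 in suprabasal and 0.04 in basal cells. The initiation factor Mtif3 among them had 5.03 FPKM in BT and 8.66 FPKM in WT suprabasal cells, and 7.93 FPKM in BT and 12.5 FPKM in WT basal cells.

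The 19 loci for mitoribosome assembly and modification of its RNA had medians of -0.28 in suprabasal and -0.25 in basal cells. These were the lowest medians of the 5 lists in each layer. Below 0 were 12 loci in suprabasal and 14 in basal cells. The share above 0 was 36.8% in suprabasal cells, against 41.6% of all loci in both tables. In basal cells it was 26.3%, against 40.2%. Mrm1, a methyltransferase of the ribosomal RNA, had 2.20 FPKM in BT and 5.11 FPKM in WT basal cells (-1.22 ± 0.66). Mettl17, an assembly factor of the small subunit, is merged with Slc39a2, and that locus had 35.9 FPKM in BT and 17.9 FPKM in WT suprabasal cells (1.001 ± 0.64). The 14 loci for transcription and processing of mitochondrial RNA had medians of 0.03 in suprabasal and 0.04 in basal cells. Ptcd2 had 5.23 FPKM in BT and 11.7 FPKM in WT suprabasal cells (-1.16 ± 0.92), and the RNA-degrading enzyme Pnpt1 had 10.1 FPKM in BT and 14.3 FPKM in WT basal cells (-0.49 ± 0.39).

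Among 9 loci for regulators of nuclear genes for mitochondria, none passed, and the medians were -0.17 in suprabasal and 0.03 in basal cells. The coactivator Pprc1 had 19.96 FPKM in BT and 33.2 FPKM in WT suprabasal cells (-0.73 ± 0.56). Ppargc1b, a coactivator of estrogen-related receptors, had 5.69 FPKM in BT and 9.73 FPKM in WT basal cells (-0.77 ± 0.40).

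Other groups of ribosomal and mitochondrial genes were set beside the members without a test between them. The 85 cytosolic ribosomal protein loci had medians of -0.13 in suprabasal and -0.15 in basal cells. In each layer 1 rise was called, against 0.0523% of all loci tested in suprabasal and 0.257% in basal cells. The fold of their summed levels was 1.53 in suprabasal cells (22002 FPKM in BT, 14380 FPKM in WT) and 0.905 in basal cells (13650 FPKM in BT, 15076 FPKM in WT). In suprabasal cells 52 of the 85 lay below 0 and 33 above (38.8% above, against 41.6% of all loci in both tables). The largest log2 ratio there was 3.09, so the sum does not give the direction of most of these loci. The 79 nuclear-encoded loci for oxidative phosphorylation had medians of -0.08 in suprabasal and -0.02 in basal cells, with none called. At unadjusted p under 0.05 in either direction were 7 of them (8.86%, against 7.11% of all loci) in suprabasal cells. In basal cells there was 1 (1.27%, against 7.68% of all loci). All of these were lower in BT and none was higher. Of the 10583 loci in both tables, 573 were lower in BT at that p in suprabasal and 656 in basal cells.

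**Figure D4:**
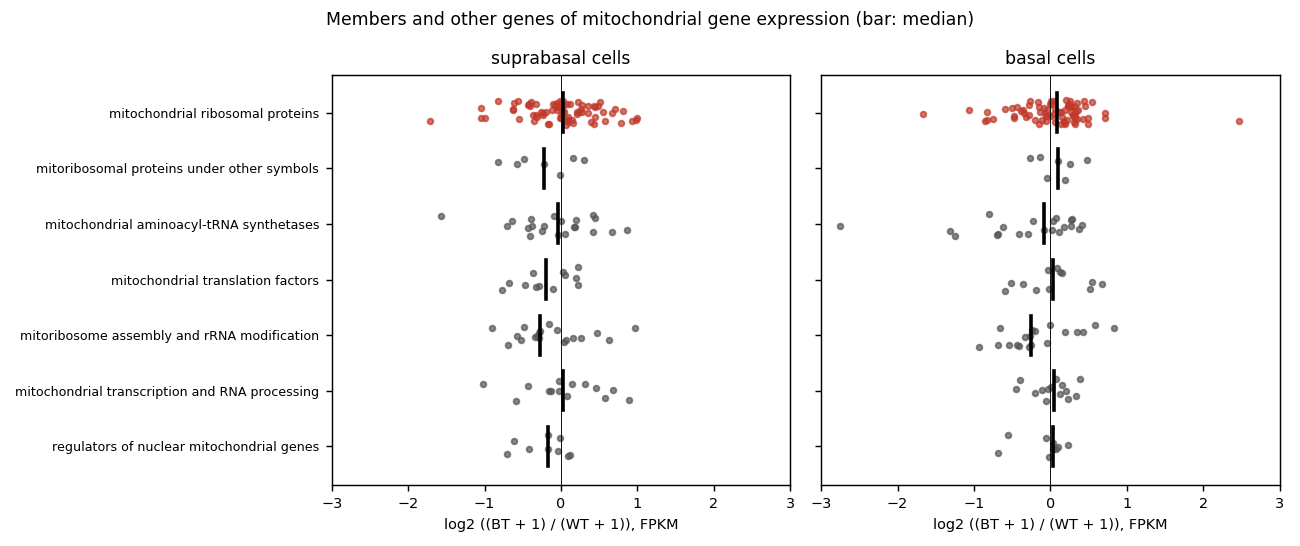
Log2 ratio of BT over WT, with a pseudocount of 1 FPKM, for each member (red) and each locus of 6 further lists (grey) in suprabasal and basal cells, with black bars at the medians. The medians run from -0.28 (assembly) to 0.03 (transcription) in suprabasal cells and from -0.25 (assembly) to 0.09 in basal cells, and the point far left in basal cells is Pars2.

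Many of these genes start head to head with another gene, and 32 members have a coding neighbour that begins within 1000 bp on the other strand. For 24 of these the neighbour was measured in a locus of its own. The log2 ratios of member and neighbour had the same sign in 17 of the 24 pairs in suprabasal and in 13 in basal cells, and Spearman's rho was 0.36 and -0.108, as a description over pairs from the same pooled groups. Mrps11 and Mrpl46 are neighbours of each other, so that this pair counts from both sides, and in GENCODE their spans overlap at the starts. Mrps11 had 15.95 FPKM in BT and 11.1 FPKM in WT suprabasal cells, and 18.7 FPKM in BT and 20.8 FPKM in WT basal cells. Mrpl46 had 8.91 FPKM in BT and 5.98 FPKM in WT suprabasal cells, and 8.70 FPKM in BT and 6.82 FPKM in WT basal cells.

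The gap of Mrps12 was not seen in the values of its neighbour. Sars2, which charges the mitochondrial transfer RNA for serine, starts 172 bp away on the other strand. Sars2 had 5.17 FPKM in BT and 4.97 FPKM in WT suprabasal cells, and 6.36 FPKM in BT and 5.82 FPKM in WT basal cells. The difference between the genes of the pair was not tested. Mrpl36 shares its start region with Ndufs6, a subunit of complex I, and both were on the lower side in suprabasal cells: Mrpl36 had 13.9 FPKM in BT and 25.3 FPKM in WT, and Ndufs6 had 64.0 FPKM in BT and 105.6 FPKM in WT.

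**Figure D5:**
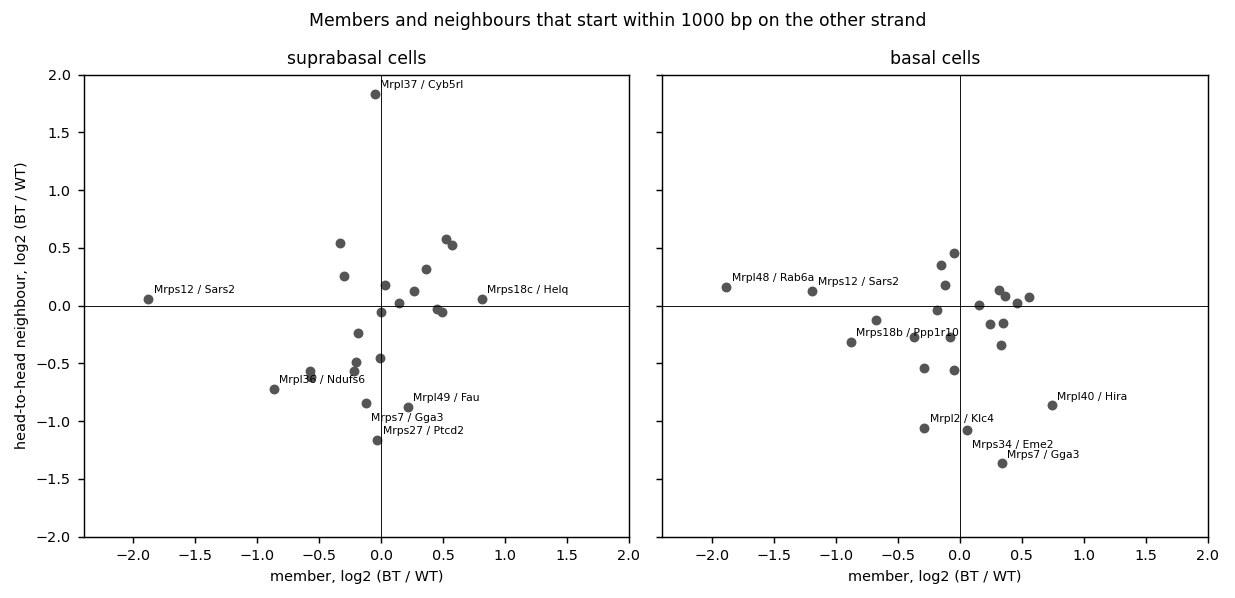
Log2 ratio of BT over WT of each member (horizontal) and of the gene that starts within 1000 bp of it on the other strand (vertical), for 24 pairs in suprabasal and in basal cells, 1 point per pair. Pairs far from 0 carry their names, and Mrps12 lies far left in both layers while its neighbour Sars2 lies near 0.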

How the data were processed

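RNA sequencing measured 10 samples of sorted keratinocytes. TopHat, Cufflinks and the mouse build mm10 were used, per the submitters' processing notes, which give no versions, and per the labels the libraries were strand-specific and made from 10 ng of RNA. The authors deposited 1 table per layer, with 1 level per genotype, read here as FPKM because the columns have the form Cuffdiff writes and no unit stands in the header. The authors' fold changes are log2 ratios of BT over WT, their deposited test statistic is a score that was not used, and each deposited p-value has an adjusted q-value beside it. Loci of status OK were analysed, and 26 loci per table with another status were left out. How the libraries were scaled is not given in the sources used here, and the depth per sample is unknown.

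With Python 3.11.15, numpy 2.4.6, pandas 2.3.3 and scipy 1.17.1, log2 ratios were computed as BT over WT (within 4.13e-05 of the deposited values). The SE is the absolute ratio over the two-sided normal quantile of the deposited p. A gene was called at q under 0.05. The layer difference was a two-sided Wald z-test with Benjamini-Hochberg adjustment over all loci in both tables. The code was run on simulated data with independent layers and normal errors of known size. That run cannot show how title stems shared between layers, or SEs taken from the deposited p, affect the test. Medians use a pseudocount of 1 FPKM. Gene positions come from GENCODE and promoters from RefSeq (GRCm38.p6). Named genes were any called, the 8 highest and 8 lowest ratios per layer at 5 FPKM or more, the 6 highest and 4 lowest levels, the 4 smallest p of the layer difference, merged loci, and 1 gene per further list and layer. Alternatives were another adjustment, centring, other pseudocounts, a minimum level and loci naming 1 gene. Nothing says that replicates came from separate animals, so the p-values measure only the spread between these samples, which may be technical. The members, lists and tests were chosen with earlier results of these data known.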

Additional observations from a re-analysis of the deposited data

Results flagged for a closer look

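Some loci that the rule on names or tables left out had a higher level in BT than in WT in 1 layer, and the opposite in the other. The pseudogene locus Mrpl48-ps had 11.2 FPKM in BT and 8.55 FPKM in WT basal cells, but 11.9 FPKM in BT and 13.2 FPKM in WT suprabasal cells. Mrps36-ps1 had 15.2 FPKM in BT and 11.2 FPKM in WT suprabasal cells, and Mrps36-ps2 had 52.8 FPKM in BT and 33.5 FPKM in WT suprabasal cells, above the levels of Mrps36 itself (3.504 FPKM in BT and 1.84 FPKM in WT). In basal cells both were lower in BT, with 7.35 FPKM in BT and 12.3 FPKM in WT for Mrps36-ps1, and 19.1 FPKM in BT and 27.3 FPKM in WT for Mrps36-ps2. Mrpl23-ps1 was lower in BT in both layers, with 61.9 FPKM in BT and 82.6 FPKM in WT suprabasal cells, and 38.2 FPKM in BT and 47.3 FPKM in WT basal cells. Reads of near-identical copies can be split between a gene and its pseudogenes, so the levels of Mrps36 and Mrpl48 are uncertain. A further Mrps28 locus, with status OK in the basal table only, had 14.4 FPKM in BT and 0.824 FPKM in WT (log2 ratio 4.12 ± 5.82). None of these passed the authors' q of 0.05, and the differences between loci were not tested.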

How the results depend on the processing

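The count of members called stayed at 0 in each layer and in the layer difference under each alternative run: Benjamini-Hochberg adjustment of the deposited p, centring on expressed loci, a minimum of 5 FPKM, and loci that name a single gene (for the layer difference, the last 3). The median log2 ratio in basal cells was 0.19 after centring, against 0.09 as reported. The other alternatives gave 0.05 to 0.13 in basal cells and 0.01 to 0.09 in suprabasal cells. Those that added numbered pseudogenes or counted Mrps30 once were chosen after seeing the data. Of the named members, Mrps16 and Mrps5 turned positive in suprabasal cells after centring, at 0.064 and 0.026, against -0.015 and -0.05 as reported. The other 72 centred values and all 74 values at each of the pseudocounts of 1 and 5 FPKM kept their direction. No paired analysis was possible because each group has 1 deposited value, and leaving out a replicate was not possible for the same reason. With 2 BT samples per layer and unknown depth, changes of about 2-fold were mostly out of reach.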
